A study of Homo sapiens with 6 samples.

Results

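The genes described here were the 2 Hippo pathway co-activators YAP1 and WWTR1 (which encodes TAZ), the 4 DNA-binding TEAD factors TEAD1, TEAD2, TEAD3 and TEAD4, and 4 target genes, CCN1, CCN2, ANKRD1 and AMOTL2. They were chosen by name, as the rows of the authors' deposited table whose NCBI gene ID belongs to one of these 10 symbols. All 10 had a row among the 19589 features, and all 10 had an adjusted p, as 14597 features did. The study asked how the transcriptome changed when the long non-coding RNA HOTAIR was depleted. The libraries were labelled HepG2, a line from a human liver tumour. Their cells were given either an siRNA (small interfering RNA) that targets HOTAIR, siHOTAIR, or a negative control siRNA, siNC. Every group therefore carried a transfected small RNA, no untransfected cells were compared, and the labels name neither the dose, the time after transfection nor the siRNA sequences. The labels describe 3 libraries per group, of total RNA depleted of ribosomal RNA.

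The Hippo pathway is a kinase cascade in which the MST kinases activate the LATS kinases, and LATS phosphorylation keeps YAP and TAZ in the cytoplasm and marks them for degradation. When the cascade is quiet, YAP and TAZ enter the nucleus, bind TEAD factors on DNA and switch on genes for growth, adhesion and matrix. In the liver the pathway is known for setting organ size and for restraining tumour growth. Much of its control acts on proteins by phosphorylation, which RNA levels do not show.

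TEAD factors bind the letters GGAATG, read on the other strand as CATTCC. Stretches that hold these letters are shown because they lie in promoters of the co-activator YAP1 and of 3 of the 4 target genes, while the 5 TEAD and WWTR1 promoter entries that could be searched hold none. The windows come from RefSeq promoters of the build GRCh38.p14, each from 250 bases before to 50 bases after a start site. Both strands were searched. Of 35116 promoters, 14.0% hold at least 1 match and 0.128% hold at least 3. Each line is read along the gene's strand, 5′ to 3′, and capitals mark the match.

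YAP1, chr11:102110273-102110302, plus strand: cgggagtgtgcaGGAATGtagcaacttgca
CCN2, chr6:131951524-131951553, minus strand: ttttcagacggaGGAATGctgagtgtcaag
CCN2, chr6:131951454-131951483, minus strand: gtggggaGGAATGcgaGGAATGtccctgtt
ANKRD1, chr10:90921290-90921319, minus strand: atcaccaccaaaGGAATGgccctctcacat
ANKRD1, chr10:90921198-90921227, minus strand: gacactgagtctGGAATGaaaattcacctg
AMOTL2, chr3:134374499-134374528, minus strand: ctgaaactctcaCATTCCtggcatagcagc

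The CCN2 promoter held 3 matches, which begin 169, 104 and 95 bases before the start site. ANKRD1 held 2, at 220 and 128 bases before its start. The single YAP1 match lies 162 bases before its start, and the AMOTL2 match lies 69 bases before one of the gene's 2 listed starts. CCN1, TEAD1 and TEAD4 were not searched. A match is a run of letters and says nothing about whether a TEAD protein was bound there in these cells.

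The deposited means are sums of whole reads over 5 libraries, 2 siNC and 3 siHOTAIR, so 1 of the labelled siNC libraries is not accounted for. Values per library below are reads recovered from those means, divided by the authors' size factors (normalized counts). The libraries are lettered by size factor, since the replicate numbers of the labels could not be matched to them. Size factors were 1.19 and 0.893 for siNC libraries a and b, and 0.888 to 1.15 for siHOTAIR. Recovered features held 4171957 to 5549365 reads per library and covered 50.0% of the summed means. HOTAIR itself was at 202 and 150 normalized counts in siNC and at 62.4, 78.2 and 59.7 in siHOTAIR. The log2 fold change of HOTAIR in the authors' deposited table was -1.37 (SE 0.197, adjusted p = 5.6e-11). Of 15 hepatocyte and HepG2 markers, 8 had a row. HNF4A was at a mean of 5.06, and APOA1, APOA2, TF, FGB, AHSG and SERPINA1 each had a mean below that of 1 read per library. The other 7, ALB and AFP among them, were not analysed here. These marker levels go against the HepG2 label, so the cells are called here only by their label. No source says whether each library is a culture of its own, so the p-values reflect the spread of these libraries only, and that spread may be technical.

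The direct target genes CCN1, CCN2 and AMOTL2 fell after siHOTAIR, while ANKRD1 did not pass the test. Of the co-activators, YAP1 rose and WWTR1 fell, and of the TEAD factors TEAD4 rose, TEAD2 fell, and TEAD1 and TEAD3 did not pass. In all, 2 of the 10 genes rose and 5 fell in the authors' deposited table at an adjusted p under 0.05 (DESeq2's Wald test with Benjamini-Hochberg adjustment). The background is high: 40.4% of the 14597 features tested were called, 20% higher and 20.4% lower, and among features with a mean of at least 300, as 9 of the 10 genes have, 57.5% were called. None of the 10 changes reached 2-fold, a size that 6.25% of all features tested reached with a call, and 0 of the 10 are in the authors' own list of changed features. Limma-voom on the recovered reads called the same 7 genes in the same directions, where it called 51.3% of 12340 features. The median log2 fold change of the 10 genes was -0.15, beside 0.0069 over all features tested.

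**Figure D1:**
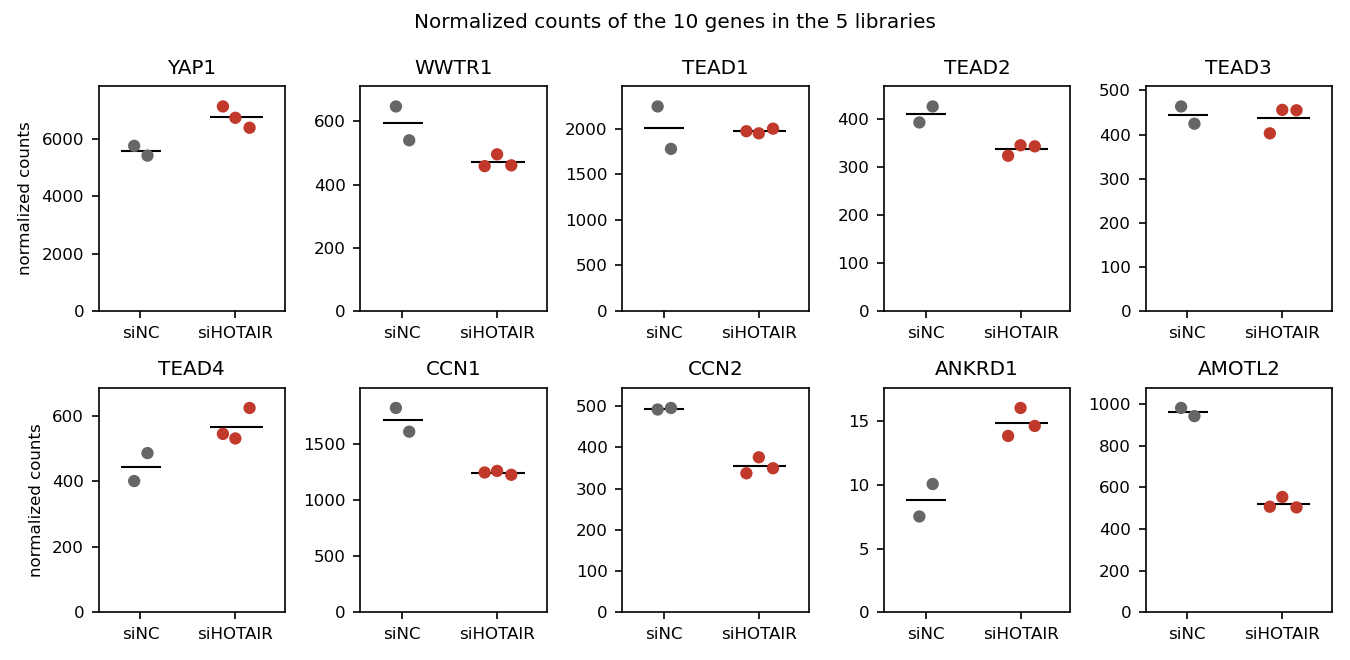
Normalized counts (y axis, from 0, a scale of its own for each gene) in the 2 siNC libraries (grey points) and the 3 siHOTAIR libraries (red points), with a black line at each group's mean. The 3 siHOTAIR points lie below both siNC points for WWTR1, TEAD2, CCN1, CCN2 and AMOTL2, and above them for YAP1, TEAD4 and ANKRD1.

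In the normalized counts of each library, the groups did not overlap for 8 of the 10 genes, 5 with siHOTAIR lower and 3 with siHOTAIR higher. This is read against 65.6% of the 12340 features with a mean of at least 10 and recovered reads, 34.2% lower and 31.4% higher. The share is therefore near the background, and the results lie in which genes moved, which way and how far. In bulk RNA, fewer cells of a type and less RNA per cell cannot be told apart.

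AMOTL2, a motin family scaffold that holds YAP in the cytoplasm and is itself a YAP target, had the largest called change of the 10. Its siNC libraries held 980 and 941 normalized counts, its siHOTAIR libraries 507, 553 and 504. The 2 control libraries lay close together, the 3 knockdown libraries lay close together, and a wide gap parted them. The log2 fold change in the authors' deposited table was -0.88 (SE 0.0896, adjusted p = 4.72e-21), which leaves 54.4% of the control level with a 95% interval of 48.1 to 61.4%. Leaving out each library in turn moved the log2 ratio only between -0.93 and -0.85. AMOTL2 exons share 187 bases with a pseudogene, RPL39P5, on the same strand. Of the other motins, AMOTL1 was at a mean of 17.2 with a log2 fold change of 0.079 (adjusted p = 0.902), and AMOT, at 0 to 2.24 normalized counts per library, was given no adjusted p, both in the authors' deposited table. AMOTL2 was thus by far the most abundant motin transcript by count.

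CCN1 encodes CYR61, a secreted matricellular protein that binds integrins and is among the classic YAP targets. Its siNC libraries were at 1818 and 1607 normalized counts and its siHOTAIR libraries at 1244, 1258 and 1223. The knockdown libraries were nearly equal, and the lower control library was still well above them. In the authors' deposited table the log2 fold change was -0.46 (SE 0.0762, adjusted p = 1.43e-08), or 72.5% of control.

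CCN2 encodes CTGF, the related matricellular protein, whose promoter carries the 3 matches printed above. Its level was 491 and 495 normalized counts in siNC, and 337, 376 and 349 in siHOTAIR. The control pair was almost identical and lay above each knockdown library. For CCN2 the authors' deposited table gives -0.48 on the log2 scale (SE 0.106, adjusted p = 4.22e-05), or 71.9% of control. CCN1 and CCN2 thus fell to almost the same share of control, and the difference between them was not tested. CCN2 exons share 195 bases with AL133346.1 on the opposite strand, and the strand setting of the counting was not given in the sources used here.

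ANKRD1, a muscle ankyrin repeat protein strongly induced by YAP in many cells, was barely detected. Its reads numbered 9 and 9 in siNC and 16, 15 and 13 in siHOTAIR, or 7.54 and 10.1 against 13.9, 16.1 and 14.6 normalized counts. All 3 knockdown libraries were above both controls, the opposite direction to CCN1, CCN2 and AMOTL2. The log2 fold change of 0.63 (SE 0.461, adjusted p = 0.291) from the authors' deposited table did not pass, and its 95% interval ran from -0.28 to 1.53. At this depth a fall as large as that of AMOTL2 lay outside the interval, whereas a rise of over 2-fold lay within it.

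**Figure D2:**
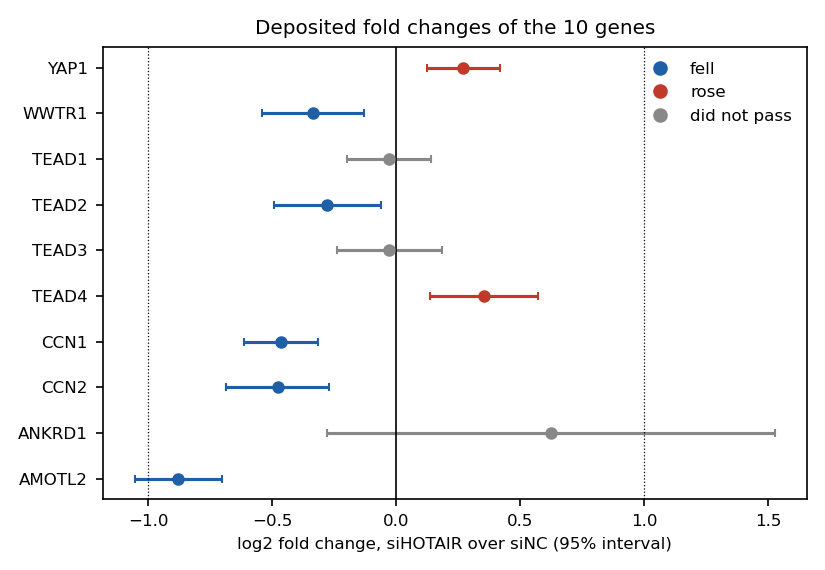
Log2 fold change of siHOTAIR over siNC (x axis) of the 10 genes (y axis) in the authors' deposited table, with 95% intervals as bars, blue for genes that fell, red for genes that rose and grey for those that did not pass, and dotted lines at 2-fold. AMOTL2 at -0.88 stands farthest to the left, and ANKRD1 at 0.63 has by far the widest interval.

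YAP1, the main co-activator, was among the most abundant transcripts, with a mean above that of 98.8% of the features tested. It was at 5753 and 5413 normalized counts in siNC and at 7126, 6731 and 6384 in siHOTAIR. Each knockdown library exceeded both controls, though the gap between the groups was smaller than the spread among the knockdown libraries. In the authors' deposited table the rise of YAP1 was 0.27 in log2 units (SE 0.0745, adjusted p = 0.00112), or 121% of control. YAP1 exons share 628 bases with AP000942.2 on the opposite strand.

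WWTR1, whose product TAZ is the paralogue of YAP, moved the other way. The siNC libraries were at 647 and 540 normalized counts and the siHOTAIR libraries at 458, 496 and 461. Control library a stood well above library b, which was closer to the knockdown libraries. The authors' deposited table puts the log2 change of WWTR1 at -0.34 (SE 0.104, adjusted p = 0.00473), or 79.3% of control. Without siNC library a, limma-voom on the recovered reads gave -0.20 and no call. WWTR1 exons share 627 bases with the antisense gene WWTR1-AS1.

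Per kilobase of exon, YAP1 made up 89.4 and 90.5% of the summed YAP1 and WWTR1 level in siNC and 93.7, 92.8 and 93.0% in siHOTAIR. WWTR1 correspondingly went from 10.6 and 9.47% to 6.32, 7.17 and 7.04%. The groups did not overlap, and the summed level per kilobase of both genes was 1143 and 1062 in siNC against 1351, 1288 and 1220 in siHOTAIR. The pool of co-activator RNA was thus larger and held a smaller TAZ share in each knockdown library. These shares restate the counts given above and were not tested.

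TEAD4 was the TEAD factor that rose. Its siNC libraries were at 401 and 486 normalized counts and its siHOTAIR libraries at 545, 531 and 624. The knockdown libraries lay above both controls, with siNC library b close to the lowest of them. The rise of TEAD4 in the authors' deposited table was 0.35 in log2 units (SE 0.110, adjusted p = 0.00479), or 128% of control. Without siNC library a, limma-voom gave 0.21 and no call.

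TEAD2 was at 393 and 427 normalized counts in siNC and at 324, 346 and 344 in siHOTAIR. The knockdown libraries lay below both controls. Its log2 fold change of -0.28 (SE 0.111, adjusted p = 0.0328) from the authors' deposited table was the call closest to the threshold, and limma-voom without siNC library b gave -0.22 and no call. TEAD2 shares 12 exon bases with CD37 on the opposite strand.

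TEAD1 had the highest count of the TEAD genes, at 2242 and 1777 normalized counts in siNC and 1971, 1947 and 1998 in siHOTAIR. The 3 knockdown libraries lay between the 2 controls. The log2 fold change was -0.030 (95% interval -0.20 to 0.14, adjusted p = 0.826) in the authors' deposited table. The sign depended on the control library: the log2 ratio was 0.15 without siNC library a and -0.18 without library b. TEAD3 was at 464 and 425 normalized counts in siNC and at 403, 456 and 455 in siHOTAIR, with groups that overlapped. Its log2 fold change was -0.026 (95% interval -0.24 to 0.18, adjusted p = 0.877) in the authors' deposited table, and the log2 ratio ran from -0.082 without siNC library b to 0.045 without siNC library a, with 0.036 without siHOTAIR library a.

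Since TEAD1 has the longest exons of the 4, the order changed once levels were divided by length. TEAD4 then held the largest share of the summed TEAD level in every library but 1. Its share was 29.1 and 35.5% in siNC and 39.3, 37.6 and 41.2% in siHOTAIR, without overlap. TEAD2 went from 19.2 and 20.9% to 15.7, 16.4 and 15.3%, also without overlap. TEAD1, at 31.7 and 25.2% against 27.7, 26.8 and 25.7%, and TEAD3, at 19.96 and 18.4% against 17.2, 19.1 and 17.8%, overlapped between the groups. The summed TEAD level per kilobase was 763 and 759 in siNC and 767, 783 and 839 in siHOTAIR. It thus differed little between the groups, apart from the highest knockdown library, while TEAD4 took a larger part and TEAD2 a smaller one. These TEAD shares restate the counts given above in another form, and they were not tested. For TEAD4, siNC library b at 35.5% lay close to the lowest knockdown share of 37.6%.

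**Figure D3:**
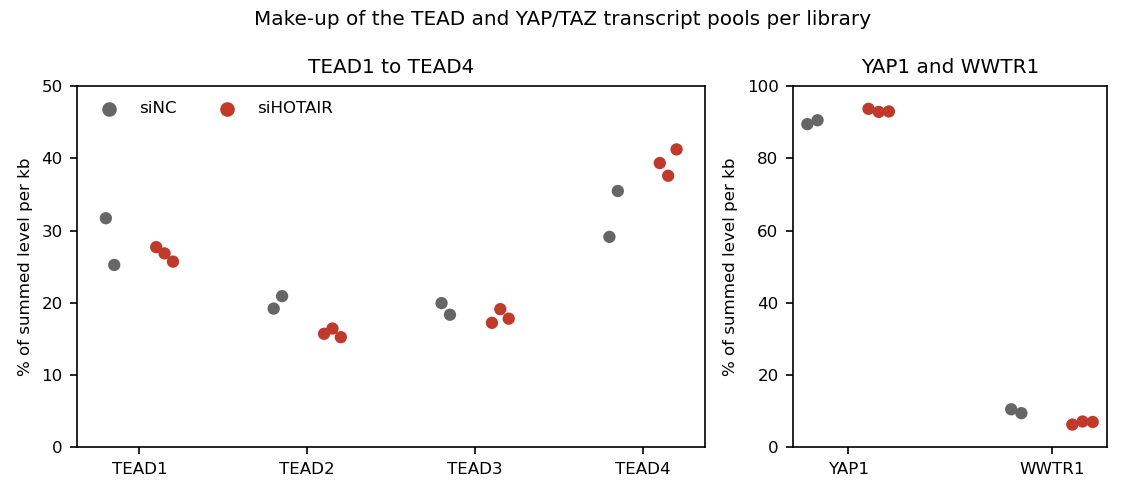
Share of each gene in its family's summed level per kilobase of exon (y axis, percent), for TEAD1 to TEAD4 (left) and for YAP1 and WWTR1 (right), with 1 point per library, grey for siNC and red for siHOTAIR. The red points lie above the grey ones for TEAD4 and YAP1 and below them for TEAD2 and WWTR1.

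Compared across all 10 genes per kilobase of exon, the siNC means were 992 for YAP1, 748 for CCN1, 246 for TEAD4, 217 for TEAD1, 211 for CCN2, 201 for AMOTL2, 153 for TEAD2, 146 for TEAD3, 111 for WWTR1 and 4.45 for ANKRD1. The siNC values of TEAD1 overlapped those of TEAD4, CCN2 and AMOTL2, and those of TEAD2 overlapped those of TEAD3, so these pairs are not ordered beyond their spread. In siHOTAIR the means were 1198 for YAP1, 542 for CCN1, 314 for TEAD4, 213 for TEAD1, 151 for CCN2, 144 for TEAD3, 126 for TEAD2, 109 for AMOTL2, 87.9 for WWTR1 and 7.51 for ANKRD1. AMOTL2 thereby moved from above TEAD2 and TEAD3 to below both. Lengths are unions of GENCODE exons and not the lengths of the isoforms made in these cells.

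Further YAP and TAZ targets moved in both directions. Counts of called genes in this and the lists below stand beside 40.4% of all features tested, 20% higher and 20.4% lower. A published signature of such targets, written down from memory and without the 4 targets above, had 17 genes tested, of which 7 rose, 4 fell and 6 did not pass. In all 64.7% were called, and the median log2 fold change was 0.059. Those that rose included the kinase gene LATS2 (1.20, SE 0.115), FOXF2 (1.06, SE 0.109), CRIM1 (0.75, SE 0.0770) and the receptor tyrosine kinase AXL (0.32, SE 0.0792). Those that fell were IGFBP3 (-0.96, SE 0.0900), the membrane repair protein MYOF (-0.77, SE 0.0675), ASAP1 (-0.43, SE 0.0977) and DOCK5 (-0.38, SE 0.0851), each a log2 fold change from the authors' deposited table. With limma-voom on the recovered reads 6 of these genes rose and 7 fell, so the more common direction depended on the method. The fall of CCN1, CCN2 and AMOTL2 was therefore not shared by the list as a whole.

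LATS2, which phosphorylates YAP and is also a YAP target, was at 211 and 218 normalized counts in siNC and at 482, 496 and 515 in siHOTAIR. It had more than doubled in each knockdown library, while its paralogue LATS1 had a log2 fold change of 0.071 (adjusted p = 0.752) in the authors' deposited table. Of 18 genes tested in the Hippo kinase core, 2 rose and 6 fell, with a median log2 fold change of -0.22. That is 44.4% called, near the 40.4% of all features tested. MINK1, a kinase that acts beside the MST kinases, was the other that rose (0.22, SE 0.0753). The MST kinase genes STK3 (-0.76, SE 0.173) and STK4 (-0.41, SE 0.0959), the LATS cofactor MOB1A (-0.62, SE 0.125) and TAOK1 (-0.46, SE 0.0926), which activates the MST kinases, fell in the authors' deposited table. LATS2 and MINK1 thus rose where STK3, STK4 and TAOK1 fell, and 10 of the 18 genes did not pass.

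Upstream of the kinases, 8 of 28 genes tested rose and 3 fell, with a median of 0.15. The share called, 39.3%, was near the 40.4% of all features tested. The polarity gene SCRIB (0.72, SE 0.0746), WWC1, which encodes the LATS activator KIBRA (0.60, SE 0.0797), NF2, which encodes merlin (0.46, SE 0.0867), and the Crumbs gene CRB2 (2.02, SE 0.322) rose. CRB2 did so from 16.7 and 11.2 normalized counts in siNC. PATJ (-0.72, SE 0.132), RASSF1 (-0.42, SE 0.122) and LLGL2 (-0.26, SE 0.0837) fell in the authors' deposited table. In STRIPAK, the phosphatase complex that acts on the MST kinases, 3 of 18 genes rose and 11 fell, with a median of -0.39. Here 77.8% were called, beside 40.4% of all features tested and 57.5% of those with a mean of at least 300. The kinases STK25 (0.75, SE 0.0983) and STK24 (0.41, SE 0.0828) and the striatin STRN4 (0.21, SE 0.0784) rose, and CTTNBP2NL (-0.80, SE 0.108), SIKE1 (-0.54, SE 0.119) and the scaffold subunits PPP2R1B (-0.44, SE 0.0691) and PPP2R1A (-0.33, SE 0.0711) fell in the authors' deposited table.

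Among 17 tested genes that bind YAP and TAZ or control their turnover, 2 rose and 5 fell, with a median of -0.0045. The share called, 41.2%, was near the 40.4% of all features tested. YWHAZ (-0.66, SE 0.0680) and YWHAE (-0.25, SE 0.0793), which encode 14-3-3 proteins that hold phosphorylated YAP in the cytoplasm, fell. So did BTRC (-0.51, SE 0.127) and FBXW11 (-0.30, SE 0.0966), the F-box proteins that mark YAP and TAZ for degradation. CSNK1D (0.29, SE 0.0724), a casein kinase that primes this step, and PTPN14 (0.18, SE 0.0750), a phosphatase that binds YAP, rose in the authors' deposited table, PTPN14 only just (adjusted p = 0.0481). After centring on the median of all features, 1 gene of this list rose.

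Both tested VGLL cofactors, which compete with YAP and TAZ for TEAD factors, rose. VGLL3 was at 1101 and 909.8 normalized counts in siNC and at 1531, 1378 and 1354 in siHOTAIR (log2 fold change 0.49, SE 0.0902), and VGLL4 at 322 and 333 against 423, 416 and 498 (0.44, SE 0.115, fold changes from the authors' deposited table). Neither gene's groups overlapped, as held for 65.6% of the 12340 features with a mean of at least 10 and recovered reads. VGLL1 and VGLL2 were not analysed here.

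Relatives of the targets did not all follow them. CCN3 rose, at 0.60 in log2 units (SE 0.202, adjusted p = 0.0101), and CCN5 was at -0.17 (SE 0.0765, adjusted p = 0.0656), both from the authors' deposited table. ANKRD23, related to ANKRD1, had 0.50 (SE 0.223, adjusted p = 0.0583), and ANKRD2 had -0.24 (SE 0.296, adjusted p = 0.560). With limma-voom, ANKRD23 and CCN5 passed, in those directions.

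Targets of SRF and its actin-sensing partners the MRTF proteins, several of which YAP also regulates, split as well. The list also holds SRF, MRTFA and MRTFB themselves. Of its 17 genes tested, 7 rose and 4 fell (64.7% called, beside 40.4% of all features tested), with a median of 0.12. The actin-binding genes TPM4 (1.27, SE 0.0682) and FLNA (0.66, SE 0.0907), ACTB (0.46, SE 0.0777) and MRTFA (0.45, SE 0.0844) rose. FHL2 (-0.88, SE 0.0831), the focal adhesion gene VCL (-0.49, SE 0.0714) and SRF itself (-0.45, SE 0.105) fell in the authors' deposited table.

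Of 15 partners of YAP and TEAD on chromatin, 5 rose and 3 fell (53.3% called, beside 40.4% of all features tested), with a median of 0.11. The AP-1 genes FOS and FOSB fell furthest. FOS was at 2939 and 2837 normalized counts in siNC and at 988, 1026 and 994 in siHOTAIR (log2 fold change -1.52, SE 0.0692), and FOSB at 306 and 299 against 39.0, 48.2 and 34.9 (-2.82, SE 0.186, in the authors' deposited table). Their groups lay far apart. JUND also fell (-0.30, SE 0.0741), and the elongation kinase CDK9 (0.62, SE 0.0919), the SWI/SNF subunit ARID1A (0.29, SE 0.0805) and SMAD3 (0.21, SE 0.0818) rose in the authors' deposited table.

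**Figure D4:**
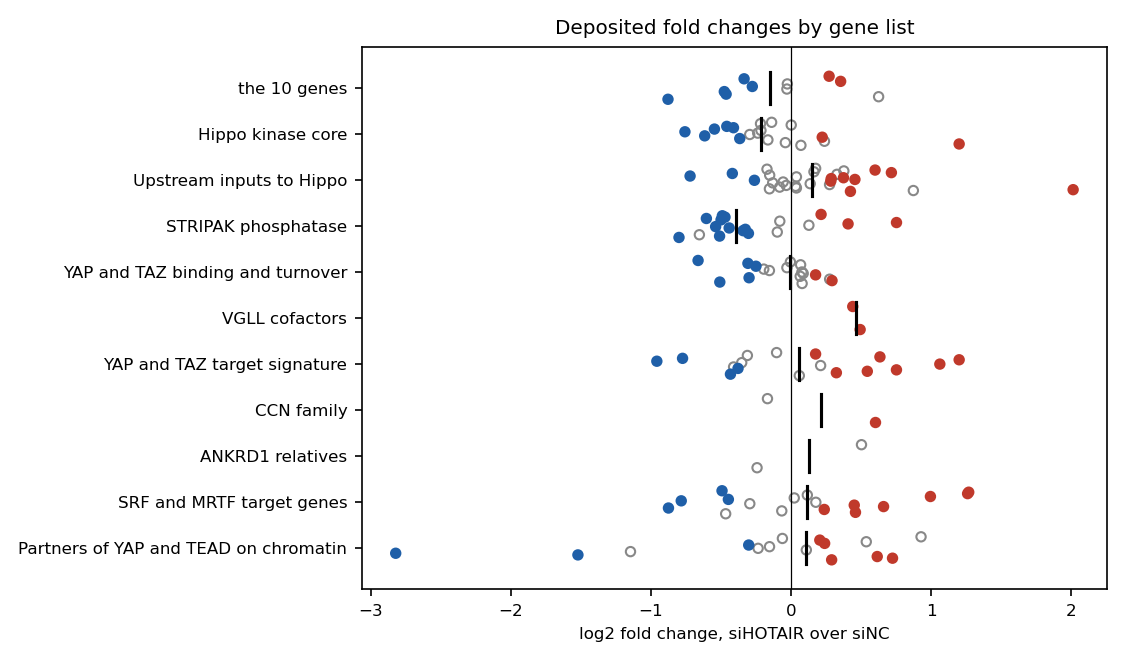
Log2 fold changes of siHOTAIR over siNC (x axis, authors' deposited table) for the tested genes of each list (y axis), red where a gene rose, blue where it fell and open grey where it did not pass, with a black line at each list's median. The medians run from -0.39 for STRIPAK to 0.47 for the 2 VGLL genes, and most lists hold genes on both sides of 0.

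Some markers of other cell types were called, beside 40.4% of all features tested. Of the fibroblast and stellate markers, 3 of 5 tested rose (COL1A1, PDGFRB and DCN), and the summed level of the 6 with a row was 1242 and 1243 normalized counts in siNC and 2151 to 2546 in siHOTAIR. COL1A1, at a mean of 1591, made up most of that sum, followed by PDGFRB at 254. COL3A1 (log2 fold change -0.066, adjusted p = 0.904) and THY1 (0.71, adjusted p = 0.274) did not pass in the authors' deposited table. Of the endothelial markers 1 of 4 rose (VWF), with sums of 82.0 and 85.2 against 105 to 145, and VWF was at 0 in 1 siNC library. VWF had a mean of only 5.38. Most of the sum came from CDH5, at a mean of 83.2, which did not pass (adjusted p = 0.0675 in the authors' deposited table). Of the leukocyte markers 1 of 3 fell (CD68), with sums of 184 and 204 against 127 to 154. Their part in the changes of the 10 genes was not tested.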

How the data were processed

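The authors' deposited tables hold 1 comparison, siHOTAIR over siNC, and 0 columns of single libraries. HTSeq 0.6.1, DESeq, DESeq2 and the build hg19 are named per the submitters' processing notes. The aligner, annotation and strand setting were not given in the sources used here. Libraries came from a stranded kit, per the labels' protocols.

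Per the file headers, which are those of a DESeq2 results table, the signal deposited by the authors is an average over libraries of size-factor-scaled counts. The deposited log2 fold changes and standard errors are the authors', shrunken toward 0. The score deposited by the authors is the ratio of these. The deposited p-values are the authors' Wald test p-values, with Benjamini-Hochberg adjustment over 14597 features, and a second table adds the authors' call words. These deposited tests are the main result, with an adjusted p under 0.05 as the threshold, and intervals of 95% are 1.96 standard errors either side.

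Reads per library were recovered by solving each deposited mean for whole reads of 5 libraries. Above a mean of 100 the solution also had to give the deposited log2 fold change within 1e-06. This gave reads for 18707 of the 19461 features with a mean above 0. Features with a mean above 2000 were solved only where listed here. The solver was tested on simulated data. limma 3.58.1 (R 4.3.3, limma-voom, features with a mean of at least 10) was run on these reads, as an alternative chosen after seeing the data. Levels per kilobase used union exon lengths of GENCODE 29, and shared exon bases come from the same annotation. Promoters are RefSeq's. Precision is limited by the 5 libraries and, for ANKRD1, by its few reads.

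The genes and lists were chosen with earlier results of these data known. Of each other list, up to 4 genes per direction with the smallest p are named (up to 3 where none passed); a few genes these rules would name are not reported here. Alternatives were thresholds, adjustments, centring, ratios of recovered means and leaving out each library.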

Additional observations from a re-analysis of the deposited data

How the results depend on the processing

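At an adjusted p under 0.001, 0 of the 10 genes rose and 3 fell (CCN1, CCN2 and AMOTL2). Requiring a change of at least 2-fold left 0 higher and 0 lower. Adjusting over all features with a p-value or over those with a mean of at least 20, centring, and limma-voom with all 5 libraries changed neither count by more than 1.5 times. With limma-voom leaving out each library in turn, 1 to 2 genes rose and 4 to 5 fell. The losses were WWTR1 and TEAD4 without siNC library a and TEAD2 without siNC library b, and the cause was not tested. Of the fold changes of single genes under alternatives with a test, 103 kept their direction and side of the threshold and 14 kept direction and lost the call. The other 3 changed sign, for genes not called: limma-voom gave TEAD1 0.15 and TEAD3 0.038 without siNC library a, and TEAD3 0.034 without siHOTAIR library a. Of the log2 ratios, which have no test, 62 stayed within the deposited standard error of the deposited value and 8 did not. Of the counts in gene lists, 49 stayed within 1.5 times and 11 did not.

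The authors' other table repeats the same values and gave no test of its own, so that alternative was not run. No paired analysis was possible because the recovered libraries carry no replicate number. With 2 siNC libraries, 1 control library can decide a call, and the lone library left is then assumed to vary like the others. Features with few reads, such as ANKRD1, carry wide intervals.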
